A study of Homo sapiens with 12 samples.

Results

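Hyaluronan is a long, unsulfated glycosaminoglycan that coats cells and fills the matrix around them. The 8 genes described here encode its synthases (HAS1, HAS2 and HAS3), 2 of its receptors (CD44 and HMMR) and the hyaluronidases that cut it (HYAL1, HYAL2 and HYAL3). They were chosen by name, for their role, from the 56269 genes of the count table. The rule used no measured value, but earlier results of these data were known when the members were chosen. Of the 8 genes, 6 passed the filter on low counts, among 16069 genes that did, and HAS1 and HAS2 did not.

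The libraries were made from total RNA of HEYA8, a human ovarian cancer cell line labelled high grade serous, grown at steady state in medium with 10% serum. Betaglycan, encoded by TGFBR3, is a TGF-β co-receptor whose extracellular domain carries heparan sulfate and chondroitin sulfate chains on serines 534 and 545. The cells carried a lentiviral vector with dTomato, and were sorted by its fluorescence as 1 population per construct. Each of 4 groups had 3 libraries: control vector, ∆GAG-BG (both serines changed to alanine), S534A (CS-BG, the serine at 534 changed) and S545A (HS-BG, the serine at 545 changed). The names CS-BG and HS-BG are the study's. Its enzyme digestion found both chain types on S534A, whereas S545A lost its modification after heparinase III. The study asked which transcripts differ between cells with different chains on betaglycan.

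Total counts ran from 16410001 to 29504297 per library, so that 3 counts stood for 0.102 to 0.183 CPM (counts scaled to library size). TGFBR3, which the ∆GAG-BG construct encodes and the control vector does not, went against the labels in part: it measured 259, 20.3 and 21.4 CPM in the libraries labelled ∆GAG-BG, replicates 1 to 3, and 15.9, 259 and 259 CPM in those labelled control vector, so every direction drawn from these labels carries that doubt. It was at 413 to 476 CPM in the S534A libraries and at 520 to 574 CPM in the S545A libraries. Replicates 2 and 3 of the control vector, ∆GAG-BG and S545A groups lay much closer to each other (chi-square per degree of freedom 1.40 to 1.94) than any other pair within a group (16.4 to 74.4). No label says that the replicates were separate cultures, so p-values measure the spread between these libraries, which may be technical. S534A replicate 2 was the highest library for 26.1% of genes tested and the lowest for 25.4%, and ∆GAG-BG replicate 1 the highest for 16.3% and the lowest for 16%, against at most 9.22% and 10.1% for any other library. Keratins KRT7 (760 to 1211 TPM) and KRT18 and the ovarian factor PAX8 (109 to 173 TPM) were present. KRT19 (0.262 to 1.48 TPM) and EPCAM (0.608 to 3.01 TPM) were low, and CDH1 and MUC16 had 0 counts. The mesenchymal markers VIM (1973 to 2563 TPM), CDH2 (98.2 to 133 TPM) and FN1 (77.4 to 344 TPM) were also present. The leukocyte markers PTPRC, CD3E and CD68 stayed at or below 0.0874 TPM. Of the endothelial markers, CDH5 was at 118 to 314 TPM, VWF at 1.06 to 6.26 TPM and PECAM1 at 0.115 to 0.430 TPM. In bulk RNA, fewer cells that express a gene and less of its RNA per cell cannot be told apart.

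Hyaluronan differs from the sulfated chains of betaglycan in that no core protein carries it. The HAS enzymes polymerise it at the plasma membrane from UDP-glucuronic acid and UDP-N-acetylglucosamine. CD44 binds it at the cell surface, and HMMR, also called RHAMM, binds it but is best known inside dividing cells, where it sits on spindle microtubules. HYAL2 is anchored at the cell surface and cuts long chains, and HYAL1 acts in lysosomes. In ovarian cancer, hyaluronan and CD44 have been studied for the attachment of tumour cells to the mesothelium of the peritoneum.

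The start regions of both receptor genes are shown because their transcripts moved in opposite directions across libraries, as described for each below. Capitals mark the motif in each 30-base stretch, read 5′ to 3′ on the + strand from RefSeq promoters of GRCh38.p14. Distances are from the start in that RefSeq table, which for both genes lies inside the wider span that the count table gives, so each stretch is upstream of the RefSeq start and within that span. The first lies 37 to 8 bases before the RefSeq start of HMMR (chr5:163460595-163460624) and holds 2 adjoining copies of TTTGAA, the letters of a cell cycle homology element. The next lies 78 to 49 bases before that start (chr5:163460554-163460583) and holds CCAAT, overlapped by its reverse ATTGG. The third lies 182 to 153 bases before the RefSeq start of CD44 (chr11:35138989-35139018) and holds GGGCGG, a GC box.
HMMR TTTGAA: gtggggagaTTTGAATTTGAAaccggtagg
HMMR CCAAT: tttggctttCCAATTGGctaacgccggggt
CD44 GGGCGG: cagcagagcacgGGGCGGgggcagaggggc

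On both strands of the 250 bases before the RefSeq start, HMMR held CCAAT (or ATTGG) 5 times, overlapping matches counted. Of 35116 RefSeq promoters, 32.0% held it at least once and 0.319% at least 5 times. TTTGAA (or TTCAAA) occurred 2 times in HMMR, while 1.72% of promoters held it at least 2 times and 13.3% at least once. CD44 held neither of these letter strings, and HAS1 held TTTGAA (or TTCAAA) 1 time. GGGCGG (or CCGCCC) occurred 2 times in CD44, as in HYAL1 and HYAL3, and 1 time in HMMR, HAS1 and HAS3. It occurred at least once in 42.6% of promoters and at least 2 times in 24.3%. HYAL2 held none of the 3 strings in this window. A match describes letters, and no binding was measured here.

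**Figure D1:**
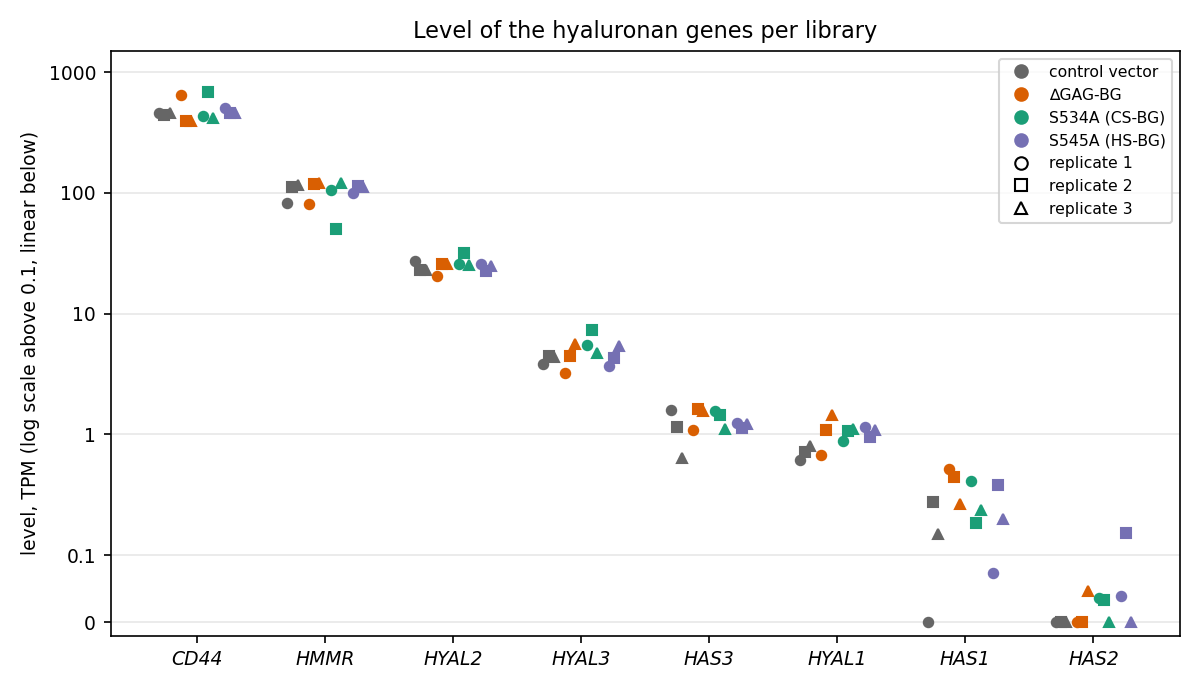
Level of each gene in TPM (counts corrected for gene length and library; vertical axis, log scale above 0.1 and linear below) in each of the 12 libraries, coloured by group, with a marker shape for each replicate number. CD44 stood highest at 394 to 689 TPM, HYAL2 led the hyaluronidases, and HAS1 and HAS2 lay at or near 0.

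The receptors were the abundant members, the hyaluronidases were intermediate to low, and the synthases were low. Levels between genes are given in TPM, counts corrected for gene length and library. CD44 had a mean of 478 TPM ± 93.2 (SD, n = 12 libraries), above 98.1% of genes tested, and HMMR 103 TPM ± 21.4, above 89.7%. HYAL2 followed at 25.0 TPM ± 2.77, HYAL3 at 4.73 TPM ± 1.08, HAS3 at 1.28 TPM ± 0.287, HYAL1 at 0.967 TPM ± 0.239 and HAS1 at 0.261 TPM ± 0.154. The order from CD44 through HMMR, HYAL2 and HYAL3 to HAS3 was the same in all 12 libraries, with ranges that did not overlap between neighbours. The ranges of HAS3 and HYAL1 overlapped (medians 1.23 and 1.01 TPM), with HAS3 higher in 11 of 12 libraries. HAS1 was above HAS2 in 11 of 12 libraries, with both at 0 in the other, and their ranges overlapped at a handful of counts.

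The 3 synthases summed to 0.789 to 2.07 TPM and the 3 hyaluronidases to 24.3 to 40.0 TPM, a ratio of hyaluronidase to synthase transcripts of 15.0 to 35.5 (median 19.8). HAS3 made up at least 67.9% of the synthase sum in every library. HYAL2 made up 78.5% to 85.9% of the hyaluronidase sum.

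HAS1 (chr19:51713112-51723994, minus strand, GRCh38 as for all genes here) was near its detection limit. It had 0, 3 and 2 counts in the libraries labelled control vector, 6, 5 and 3 in those labelled ∆GAG-BG, 6, 3 and 2 in S534A and 1, 4 and 3 in S545A, 38 in all. The groups overlapped in every comparison. HAS2, the synthase most often linked to hyaluronan-rich matrix, had 7 counts over all libraries and 0 in 7 of them, including the 3 labelled control vector; a count of 0 allows up to 0.102 to 0.183 CPM, depending on the library. No fold change was computed for either gene, and these intervals and limits cover counting error only.

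HAS3 (chr16:69105564-69118719, plus strand), which makes shorter hyaluronan chains, was the synthase detected in every library, with 20 to 57 counts. It measured 1.97, 1.41 and 0.782 CPM in the libraries labelled control vector and 1.36, 2.00 and 1.89 CPM in those labelled ∆GAG-BG. It measured 1.88, 1.83 and 1.33 CPM in S534A and 1.55, 1.37 and 1.47 CPM in S545A. The libraries labelled control vector held both the second highest and the lowest value, and spanned nearly the whole range of the other groups. Its largest difference was between ∆GAG-BG and control vector, a log2 fold change of 0.32 (SE 0.297, 95% interval −0.32 to 0.97, edgeR unadjusted p = 0.296, adjusted p = 1.0). The same difference was 0.04 without control vector replicate 3 (edgeR unadjusted p = 0.885), 0.21 without ∆GAG-BG replicate 2 (edgeR unadjusted p = 0.547) and 0.69 without control vector replicate 1 (edgeR unadjusted p = 0.0418, adjusted p = 1.0). Its exons share 365 bases with CHTF8 on the opposite strand, a gene with 1535 to 3471 counts per library, and whether the counting used strand is not given in the sources used here.

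CD44 (chr11:35138870-35232402, plus strand), the main cell surface receptor, ranked 311 by TPM in the table. It measured 1083, 1025 and 1065.5 CPM in the libraries labelled control vector, and 1534, 926.5 and 911 CPM in those labelled ∆GAG-BG. It measured 994, 1658 and 957 CPM in S534A, and 1182, 1048 and 1049 CPM in S545A. The 2 highest values came from S534A replicate 2 and ∆GAG-BG replicate 1, each far above its own group, and the other 10 libraries lay between 911 and 1182 CPM. All groups overlapped. The largest difference by log2 fold change was 0.19 for S534A against control vector (SE 0.225, 95% interval −0.31 to 0.68, edgeR unadjusted p = 0.426, adjusted p = 0.875). It became −0.12 without S534A replicate 2 (edgeR unadjusted p = 0.548).

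With S534A replicate 2 and ∆GAG-BG replicate 1 both left out, a choice made after seeing the data, CD44 was higher in S545A than in the 2 remaining libraries labelled ∆GAG-BG. The log2 fold change was 0.25 (SE 0.0639, edgeR unadjusted p = 0.00317, adjusted p = 0.241), against −0.04 (edgeR adjusted p = 1.0) with all libraries. CD44 in ∆GAG-BG against control vector was then −0.20 (SE 0.0638, edgeR unadjusted p = 0.0104, adjusted p = 0.871), against 0.09 with all libraries. None of these passed the adjusted threshold. The 2 remaining ∆GAG-BG libraries are the close pair described above, and are also those whose TGFBR3 went against their label.

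HMMR (chr5:163460203-163491945, plus strand), the receptor that works with the mitotic spindle, ran opposite to CD44. It measured 76.7, 102 and 106 CPM in the libraries labelled control vector and 75.4, 107 and 108 CPM in those labelled ∆GAG-BG. It measured 96.2, 47.1 and 109 CPM in S534A and 92.2, 103 and 102 CPM in S545A. S534A replicate 2 was the lowest library and ∆GAG-BG replicate 1 the next lowest, the same libraries in which CD44 was highest. All groups overlapped. Its largest difference was S545A against S534A, a log2 fold change of 0.24 (SE 0.257, 95% interval −0.33 to 0.80, edgeR unadjusted p = 0.374, adjusted p = 0.768). Without S534A replicate 2 it was −0.05 (edgeR unadjusted p = 0.781).

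**Figure D2:**
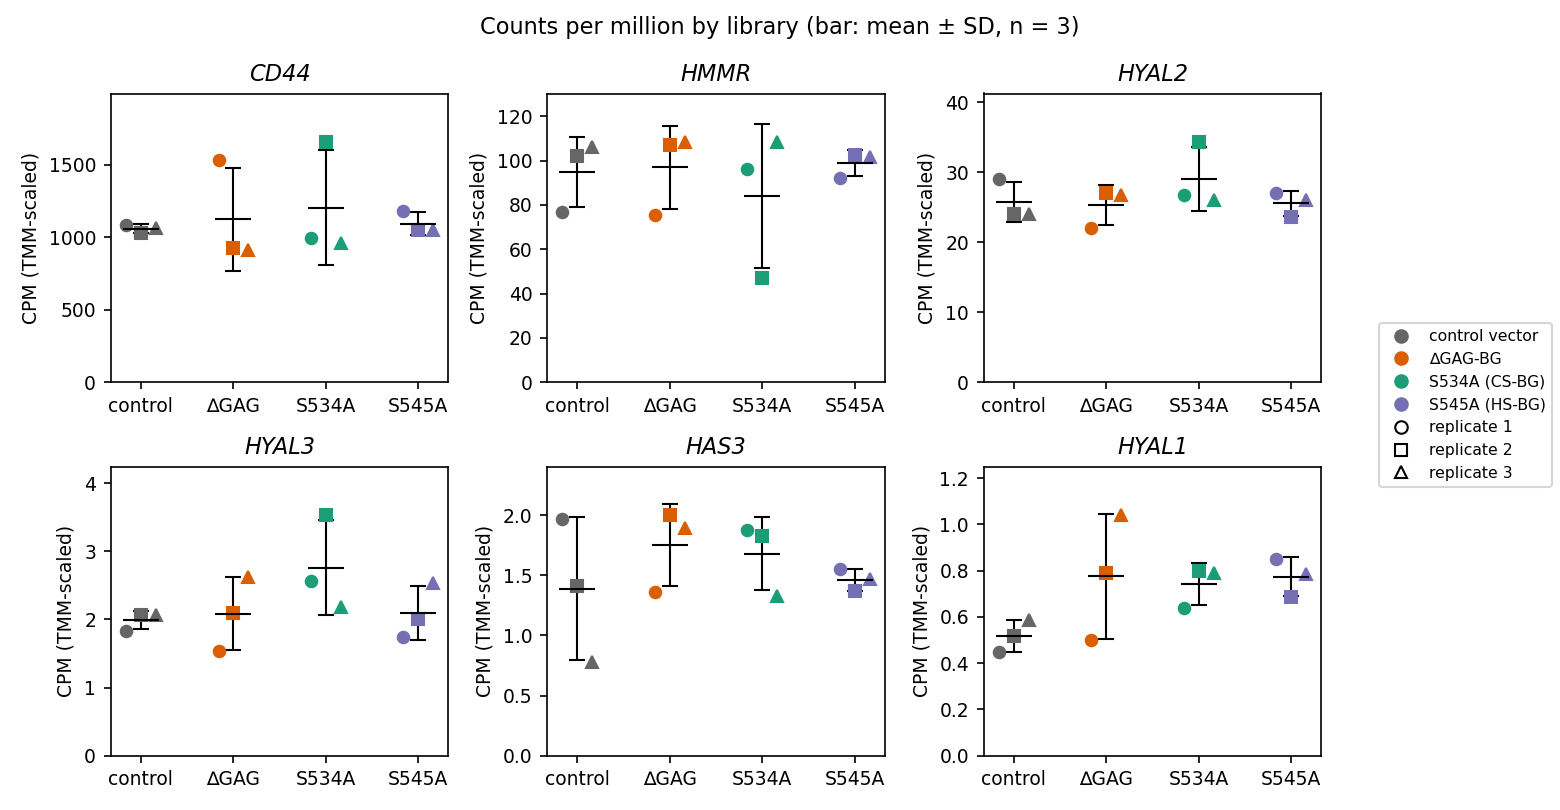
TMM-scaled CPM (vertical axes, each from 0) of the 6 genes tested, by group and library, with the mean and SD of 3 libraries as bars. S534A replicate 2 was highest for CD44 (1658 CPM), HYAL2 (34.4 CPM) and HYAL3 (3.53 CPM) and lowest for HMMR (47.1 CPM).

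The ratio of CD44 to HMMR in TPM was 13.8 in S534A replicate 2 and 7.97 in ∆GAG-BG replicate 1, and 3.29 to 5.53 in the other 10 libraries. The correlation of both genes on the log2 CPM scale was −0.88 over all 12 libraries and −0.59 over those 10, as a description over libraries that share depth and replicate structure. Over the 12 libraries, 18 of 21 genes listed as mitotic partners of HMMR had a positive correlation with it. The median was 0.83 and the range −0.40 to 0.98, and no value was computed over those 10 libraries. The share of all genes tested with a positive correlation to HMMR is not given here, so this count has no background beside it. The mean log2 CPM of the 21 genes was 6.65 in S534A replicate 2, 6.80 in ∆GAG-BG replicate 1 and 7.28 to 7.55 in the other 10 libraries. Each of the 21 genes had its lowest level in one of these 2 libraries, 14 in S534A replicate 2 and 7 in ∆GAG-BG replicate 1. Among the other 10, control vector replicate 1 had the lowest HMMR (76.7 CPM) and a mitotic mean of 7.45, inside their range. S545A replicates 2 and 3 had the lowest mitotic mean of the 10 (7.28), with HMMR at 103 and 102 CPM. The part of the mitotic genes in the HMMR and CD44 values was not tested.

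**Figure D3:**
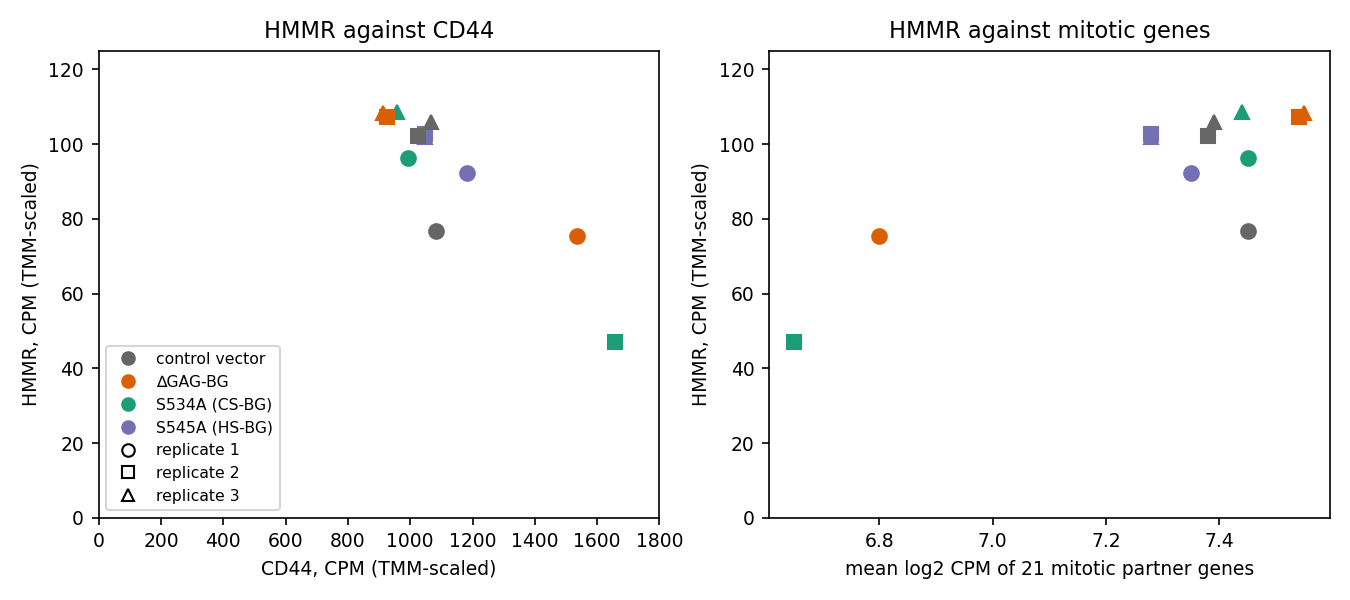
HMMR in TMM-scaled CPM (vertical axes) against CD44 in TMM-scaled CPM (left) and against the mean log2 CPM of 21 mitotic partner genes (right), 1 point per library, with groups by colour and replicates by shape. S534A replicate 2 (47.1 CPM of HMMR) and ∆GAG-BG replicate 1 (75.4 CPM) stand apart on both horizontal axes.

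Genes most like each receptor were named by the Pearson correlation of log2 CPM over the 12 libraries. For CD44 these were FHL2 (0.99), SH3KBP1 (0.98) and RPS18 (0.98), and the most opposite gene was CEP55 (−0.98), a cytokinesis protein. For HMMR these were KIF14 (0.99), a mitotic kinesin, ARL6IP1 (0.98) and ZNF281 (0.98), and the most opposite was LAPTM5 (−0.98). Over the 10 libraries without S534A replicate 2 and ∆GAG-BG replicate 1 these values ran from 0.87 to 0.93 in size. The genes were picked over 12 libraries that include these 10, so the second set of values is not independent of the choice.

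HYAL2 (chr3:50317790-50322906, minus strand) was the steadiest member, with a highest library 1.56 times its lowest. It measured 29, 24.1 and 24.0 CPM in the libraries labelled control vector and 22.0, 27.1 and 26.8 CPM in those labelled ∆GAG-BG. It measured 26.7, 34.4 and 26.1 CPM in S534A and 27.1, 23.6 and 26.1 CPM in S545A. S534A replicate 2 was the highest and ∆GAG-BG replicate 1 the lowest, so the 2 libraries that shared a direction for CD44 and HMMR had opposite ones here. All groups overlapped. The largest difference, S534A against ∆GAG-BG, was a log2 fold change of 0.20 (SE 0.133, 95% interval −0.09 to 0.49, edgeR unadjusted p = 0.155, adjusted p = 0.89), and was −0.03 with both of those libraries left out. HYAL2 shares 509 exon bases, 11.2% of its exon length, with TUSC2 on the same strand.

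HYAL3 (chr3:50292831-50299468, minus strand), a relative of HYAL1 with little known activity of its own, measured 1.83, 2.07 and 2.07 CPM in the libraries labelled control vector and 1.54, 2.09 and 2.62 CPM in those labelled ∆GAG-BG. It measured 2.56, 3.53 and 2.18 CPM in S534A and 1.74, 2.01 and 2.53 CPM in S545A. All 3 S534A libraries lay above all 3 labelled control vector, the lowest of them by a small margin. The log2 fold change was 0.48 (SE 0.242, 95% interval −0.04 to 1.01, edgeR unadjusted p = 0.068, adjusted p = 0.871), and the two-sided exact permutation p was 0.1, the smallest that 3 against 3 allows. S534A against ∆GAG-BG gave 0.42 (SE 0.243, edgeR adjusted p = 0.89) and S545A against S534A −0.41 (SE 0.241, edgeR adjusted p = 0.702), with overlapping groups. S534A against control vector gave 0.26 without S534A replicate 2 (edgeR unadjusted p = 0.298) and 0.61 without S534A replicate 3 (edgeR unadjusted p = 0.0324, adjusted p = 0.417). Without S534A replicate 2, S534A against ∆GAG-BG was 0.20 and S545A against S534A −0.18. S534A against ∆GAG-BG was 0.25 without ∆GAG-BG replicate 1. With S534A replicate 2 and ∆GAG-BG replicate 1 both left out, a choice made after seeing the data, it was 0.02 (edgeR unadjusted p = 0.922). HYAL3 had 34 to 106 counts and shares 248 exon bases (12.2%) with NAT6 and 43 (2.12%) with IFRD2, both on its strand, where IFRD2 had 1796 to 3953 counts.

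HYAL1 (chr3:50299889-50312381, minus strand), the lysosomal enzyme, showed the largest fitted difference of the 6 genes on the smallest counts, 11 to 24 per library. It measured 0.449, 0.518 and 0.587 CPM in the libraries labelled control vector and 0.498, 0.789 and 1.04 CPM in those labelled ∆GAG-BG. It measured 0.639, 0.800 and 0.788 CPM in S534A and 0.852, 0.685 and 0.785 CPM in S545A. The libraries labelled control vector lay below every S534A and S545A library and overlapped those labelled ∆GAG-BG through replicate 1 of the latter. S545A against control vector gave a log2 fold change of 0.59 (SE 0.289, 95% interval −0.04 to 1.21, edgeR unadjusted p = 0.0651, adjusted p = 1.0; two-sided exact permutation p = 0.1). S534A against control vector gave 0.51 (SE 0.292, edgeR unadjusted p = 0.104, adjusted p = 0.871; two-sided exact permutation p = 0.1), and ∆GAG-BG against control vector 0.58 (SE 0.293, edgeR unadjusted p = 0.0707, adjusted p = 1.0; two-sided exact permutation p = 0.3). These 3 comparisons share the same control libraries, and 2 of those 3 libraries went against their label in TGFBR3. ∆GAG-BG against control vector gave 0.31 without ∆GAG-BG replicate 3 (edgeR unadjusted p = 0.381) and 0.81 without ∆GAG-BG replicate 1 (edgeR unadjusted p = 0.0119, adjusted p = 1.0).

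**Figure D4:**
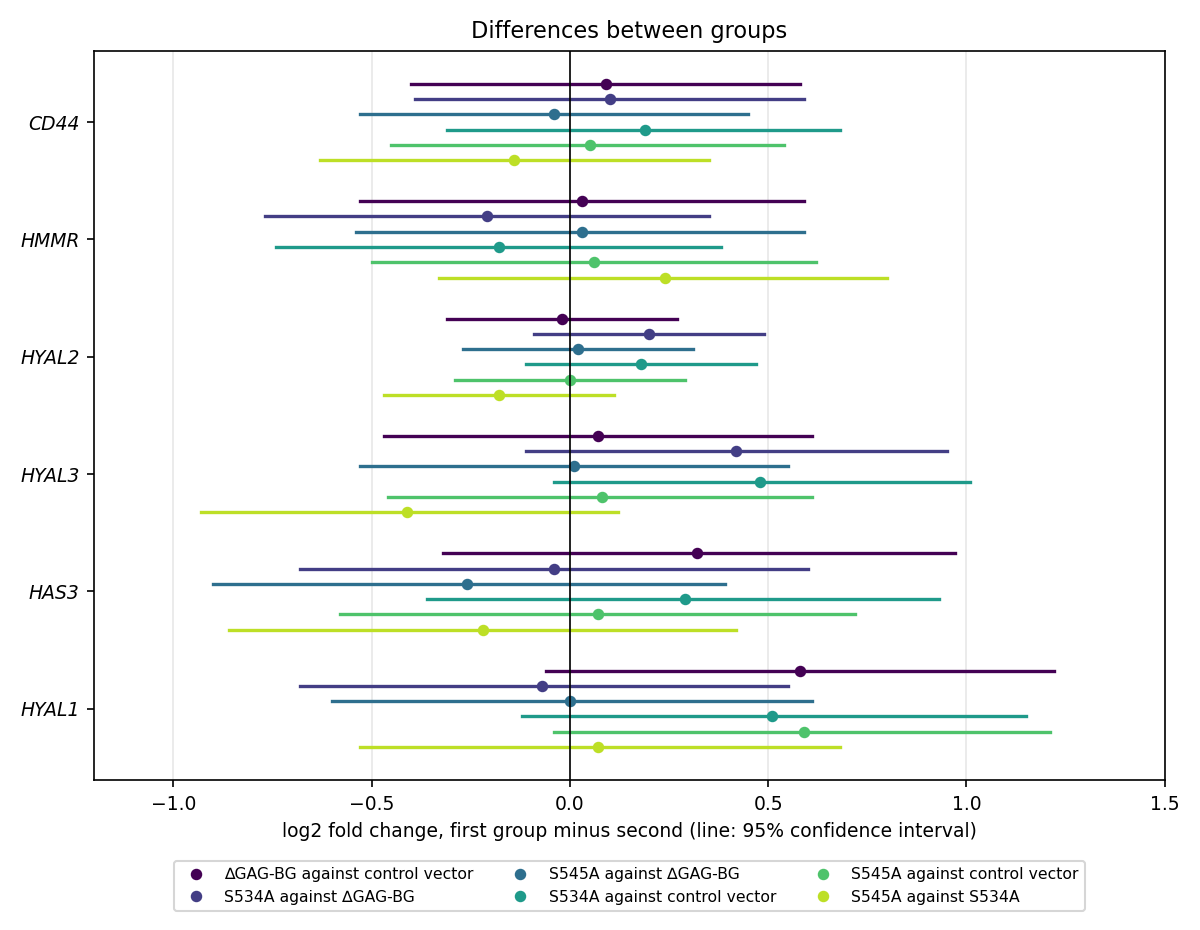
Log2 fold change (horizontal axis, first group minus second) with its 95% confidence interval for the 6 genes tested in each of the 6 comparisons, from edgeR. Every interval crosses 0; HYAL1 against the control vector group (0.51 to 0.59) and HYAL3 in S534A against it (0.48) lie farthest to the right.

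Over all comparisons, none of the 6 genes tested passed an adjusted p of 0.05 by edgeR, and none had an unadjusted p under 0.05. The background was also 0.0% of genes tested by adjusted p in each of the 6 comparisons. At an unadjusted p under 0.05 it was 0.871% of genes for ∆GAG-BG against control vector, 2.99% for S534A against ∆GAG-BG and 1.1% for S545A against ∆GAG-BG. It was 3.45% for S534A against control vector, 1.05% for S545A against control vector and 4.78% for S545A against S534A.

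Groups did not overlap for HYAL1 and HYAL3 in S534A against control vector, 2 of 6 genes, against 7.65% of all genes tested, and for HYAL1 in S545A against control vector, 1 of 6, against 8.82%. No member separated in the other comparisons, where the share of all genes was 4.87% for ∆GAG-BG against control vector, 5.65% for S534A against ∆GAG-BG, 5.04% for S545A against ∆GAG-BG and 10.1% for S545A against S534A. All 3 separations are from the libraries labelled control vector, of which 2 went against their label in TGFBR3. These shares count either direction. The comparisons share libraries, so counts across them are not independent.

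The intervals give the range of differences that the group fit leaves possible. Over the 6 comparisons, the 95% intervals reached from 0.646 to 1.6 fold for CD44, 0.585 to 1.74 fold for HMMR and 0.721 to 1.41 fold for HYAL2. They reached from 0.524 to 2.02 fold for HYAL3, 0.536 to 1.96 fold for HAS3 and 0.623 to 2.33 fold for HYAL1.

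Libraries with the same replicate number deviated together in S545A against control vector only, as judged from the data. Replicates 2 and 3 were a close pair in both groups, so pairing of 2 with 2 and 3 with 3 was not shown. The block below still counts them as separate pairs. With the replicate number as a block, 2.54% of genes passed the adjusted threshold in that comparison, and none of the 6 members did. The blocked log2 fold change of CD44 was 0.043 (SE 0.0301, edgeR adjusted p = 0.512) and that of HYAL1 0.587 (SE 0.298, edgeR unadjusted p = 0.0685, adjusted p = 0.334).

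The precursor supply list holds 8 genes that make the 2 sugar nucleotides, and all 8 were tested. UAP1, which forms UDP-N-acetylglucosamine, stood at 445 to 641 TPM, and UGDH, which forms UDP-glucuronic acid, at 28.7 to 67.0 TPM. None passed the adjusted threshold in any comparison. PGM3, a mutase of the same branch as UAP1, measured 50.3, 44.9 and 47.4 CPM in S545A, 57.1, 55.6 and 54.5 CPM in the libraries labelled ∆GAG-BG, and 51.9, 52.7 and 56.7 CPM in S534A. It measured 55.1, 48.5 and 52.8 CPM in the libraries labelled control vector. All S545A values lay below those of the ∆GAG-BG and S534A groups and overlapped those of the control vector group. The two-sided exact permutation p was 0.1 in both comparisons without overlap. Groups did not overlap, in either direction, for 5.04% of all genes tested in S545A against ∆GAG-BG and 10.1% in S545A against S534A. The log2 fold change was −0.23 for S545A against ∆GAG-BG (SE 0.0806, edgeR unadjusted p = 0.0148, adjusted p = 1.0) and −0.18 for S545A against S534A (SE 0.0806, edgeR unadjusted p = 0.0489, adjusted p = 0.702). Without S545A replicate 2 these were −0.19 (edgeR unadjusted p = 0.075) and −0.14 (edgeR unadjusted p = 0.18). With the close replicates 2 and 3 summed they were −0.21 (edgeR unadjusted p = 0.109) and −0.15 (edgeR unadjusted p = 0.198). The sign held in every alternative. The median over the list was −0.22 and −0.19 in the same comparisons, against −0.01 and 0.0 over all genes tested. It was −0.12 in S545A against control vector. In the first 2 of these comparisons, the list of other receptors and matrix partners, described below, had medians of −0.17 and −0.18.

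Among 9 other genes of hyaluronan degradation, 6 were tested and 0 had an unadjusted p under 0.05 by edgeR in any comparison. HYAL4, SPAM1 and HYALP1 had 0 counts in all 12 libraries. TMEM2, also called CEMIP2, a cell surface protein linked to hyaluronan breakdown, was at 6.27 to 11.6 TPM, and CEMIP at 0.658 to 1.15 TPM. GUSB, a lysosomal exoglycosidase, was more abundant (40.7 to 57.8 TPM).

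Of 24 other receptors and matrix partners, 8 were tested and 0 had an unadjusted p under 0.05 by edgeR in any comparison. The lymphatic receptor LYVE1 had 0 counts in every library, as did the matrix proteoglycan ACAN and the link protein gene HAPLN4. C1QBP (247.5 to 370.1 TPM) and the layilin gene LAYN (70.2 to 81.9 TPM), a membrane hyaluronan receptor, were the highest of this list. The hyaluronan-binding proteoglycan VCAN stood at 4.2 to 16 TPM.

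All 12 partners of CD44 were tested and none passed the adjusted threshold. The linkers from its tail to actin were abundant, MSN (moesin) at 1046 to 1326 TPM, EZR (ezrin) at 340.3 to 596 TPM and RDX (radixin) at 147 to 189 TPM, and MMP14, a membrane protease that cuts CD44, stood at 365 to 611 TPM. ESRP1 and ESRP2, splicing regulators that favour variant exons of CD44, were at 0.192 to 0.722 TPM. The table counts whole genes, so CD44 isoforms were not measured.

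MMP9, a gelatinase that docks on CD44, measured 0.746, 4.40 and 0.182 CPM in S534A and 0.484, 0.377 and 0.313 CPM in the libraries labelled control vector. The groups overlapped and S534A replicate 2, with 132 counts, stood alone. The log2 fold change was 2.23 (SE 0.978, edgeR unadjusted p = 0.0426, adjusted p = 0.871; two-sided exact permutation p = 0.4), and 0.37 without S534A replicate 2.

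SPP1 (osteopontin), a ligand reported for CD44, measured 18.2, 26.1 and 10.1 CPM in S534A, 11.7, 9.56 and 8.80 CPM in the libraries labelled ∆GAG-BG and 16.5, 6.61 and 8.02 CPM in S545A. Its groups overlapped in both comparisons. The log2 fold change was 0.87 for S534A against ∆GAG-BG (SE 0.373, edgeR unadjusted p = 0.0396, adjusted p = 0.89) and −0.81 for S545A against S534A (SE 0.371, edgeR unadjusted p = 0.0497, adjusted p = 0.702). Without S534A replicate 2 these were 0.52 (edgeR unadjusted p = 0.201) and −0.46 (edgeR unadjusted p = 0.249), and the latter was −1.31 without S545A replicate 1 (edgeR unadjusted p = 0.00328). MSN in S534A against control vector was −0.17 (SE 0.0775, edgeR unadjusted p = 0.049, adjusted p = 0.871; two-sided exact permutation p = 0.1). This was −0.13 without control vector replicate 1 (edgeR unadjusted p = 0.16) and −0.15 with library size scaling (edgeR unadjusted p = 0.0741). It was −0.21 without S534A replicate 3 (edgeR unadjusted p = 0.0334). All 3 S534A libraries (1496 to 1671 CPM) lay below those labelled control vector (1706 to 1864 CPM), of which 2 went against their label in TGFBR3. Groups did not overlap, in either direction, for 7.65% of all genes tested in that comparison.

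The 21 mitotic partners were all tested, and 0 had an unadjusted p under 0.05 by edgeR in any comparison. TPX2, which brings HMMR and the kinase AURKA together at the spindle, stood at 389.5 to 770.3 TPM and AURKA at 127 to 271 TPM. BRCA1 and BARD1, of the ubiquitin ligase that acts on HMMR, were at 24.5 to 50.9 and 11.5 to 25.8 TPM. The median log2 fold change of the list ran from −0.22 for S534A against control vector to 0.11 for S545A against S534A, beside −0.01 to 0.01 over all genes tested. In the former, the mean log2 CPM of the list was 7.45, 6.65 and 7.44 in S534A and 7.45, 7.38 and 7.39 in the libraries labelled control vector, so S534A replicate 2 alone lay below the control range.

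HYAL1, HYAL2 and HYAL3 lie next to each other on chromosome 3, all on the minus strand, yet their levels did not run together in a fixed way. HYAL2 and HYAL3 had a correlation of log2 CPM of 0.69 over 12 libraries and −0.04 over the 10 without S534A replicate 2 and ∆GAG-BG replicate 1. HYAL1 and HYAL2 gave 0.36 and 0.11, and HYAL1 and HYAL3 gave 0.51 and 0.41. Genes most like HYAL2 were BANF1 and CD59 (both 0.97) and CCDC80 (0.96), and those most like HYAL3 were BAP1 (0.92), EFCAB2 and GBAP1 (both 0.91). HYAL1 was most like C2orf48 (0.88), INTS6L and FAM95B1 (both 0.85), and HAS3 most like ZNF823, WNT10B (both 0.88) and F12 (0.86), at counts where sampling noise is large. All are correlations over 12 libraries, picked as the highest of 16069 genes.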

How the data were processed

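Processed values were taken for 12 libraries of HEYA8 cells in 4 groups of 3, grouped by the genotype in the labels; the library titled S545S-3 was placed in S545A by it. The deposited values are raw counts per gene with gene lengths. Per the labels, the authors ran FastQC, Trim Galore 0.4.5, STAR 2.4, SAMtools 1.2 and featureCounts; the labels list mouse builds, whereas the table holds human symbols and GRCh38 coordinates. No strand setting was given. The 37 mitochondrial genes had 0 counts.

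Counts were fitted in edgeR 4.0.16 (R 4.3.3) with filterByExpr (minimum count 10), TMM scaling and a robust quasi-likelihood test of all 12 libraries by group, with 8 residual degrees of freedom and Benjamini-Hochberg adjustment over 16069 genes at a threshold of 0.05. Single genes were also tested by a two-sided exact permutation test of 3 against 3 libraries (SciPy 1.17.1). CPM is TMM-scaled, log2 CPM for correlations used a prior count of 2, and TPM came from counts and the deposited lengths; the p-values, fold changes and levels were computed here. The script was tested on simulated data.

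The genes named are the 8 members, list genes with an unadjusted p under 0.05, at most 4 per list and comparison, the 3 most like and 1 most opposite gene of each member, overlapping genes, and TGFBR3. Members and lists were chosen with earlier results of these data known. Other genes named for their level or absence were chosen after their values were seen. Libraries with the same replicate number deviated together in S545A against control vector (correlations 0.597, 0.305 and 0.291), and the pairing was judged from these data only. Since replicates 2 and 3 were a close pair in both groups, these correlations do not show pairing of 2 with 2 and 3 with 3. Alternatives were RLE and library size scaling, no filter, DESeq2 1.42.0, limma-voom (limma 3.58.1), only the groups compared, a replicate block, each replicate left out, replicates 2 and 3 summed, and left-out libraries that stood apart. Total counts per library were 16410001 to 29504297, and intervals cover counting error and the spread of these libraries only.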

Additional observations from a re-analysis of the deposited data

How the results depend on the processing

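None of the 36 log2 fold changes of the 6 genes tested reached an adjusted p under 0.05 in any of 576 refits by edgeR, DESeq2 or limma-voom, and 13 refits had an unadjusted p under 0.05. Of the 36 values, 25 changed sign under at least 1 alternative, each 0.287 or less in size with all libraries, and 11 kept their sign. The number of genes with an unadjusted p under 0.05, 0 with all libraries, ranged from 0 to 1 as single libraries were dropped from ∆GAG-BG against control vector (1 without replicate 1 of either group), S534A against ∆GAG-BG (without ∆GAG-BG replicate 3) and S534A against control vector (without S534A replicate 3). Without replicate 1 of both ∆GAG-BG and control vector it was 2 for ∆GAG-BG compared with control vector (HYAL1 and HAS3) and 1 in S534A against control vector (HAS3). With S534A replicate 2 and ∆GAG-BG replicate 1 both left out, which was chosen after seeing the data, it was 2 in ∆GAG-BG against control vector (HYAL1 and CD44), and 1 each in S545A against ∆GAG-BG (CD44), S545A against control vector (HYAL1) and S545A against S534A (CD44). With only the 2 groups compared it was 1 in S545A against control vector (HYAL1).

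Sign changes among the log2 fold changes given in the text concerned CD44, HMMR and HYAL2. With both libraries that stood apart left out, CD44 became −0.12 in S534A against control vector, −0.20 in ∆GAG-BG against control vector, 0.25 in S545A against ∆GAG-BG and 0.16 in S545A against S534A, HMMR became −0.05 in S545A against S534A, and HYAL2 became −0.03 in S534A against ∆GAG-BG. Without replicate 1 of both ∆GAG-BG and control vector, CD44 was −0.19 in ∆GAG-BG compared with control vector, and 0.26 in S545A against ∆GAG-BG, and it was −0.03 in S534A against ∆GAG-BG with replicates 2 and 3 summed. Leaving out single libraries, CD44 ranged from −0.12 to 0.32 in S534A against control vector, −0.20 to 0.39 in S534A against ∆GAG-BG, −0.21 to 0.22 in ∆GAG-BG against control vector, −0.17 to 0.26 in S545A against ∆GAG-BG and −0.28 to 0.17 in S545A against S534A. HMMR ranged from −0.05 to 0.46 in S545A against S534A, −0.43 to 0.08 in S534A against ∆GAG-BG and −0.10 to 0.18 in ∆GAG-BG against control vector. The cause was not tested.

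With the replicate block, as with limma-voom, CD44 in S545A against ∆GAG-BG was 0.0, and no member passed the adjusted threshold in any comparison. In S545A against control vector, same-numbered libraries deviated together, but replicates 2 and 3, a close pair in both groups, were not shown to pair by number. In the other comparisons, replicate numbers were not shown to pair the libraries. Counts of 11 to 24 for HYAL1 and 0 to 6 for HAS1 limit what can be said of these genes.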
